A study of Schmidtea mediterranea with 48 samples.

Results

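The early transient wound-induced transcripts were the 68 transcripts, of 26563 in the count table, whose level in control wounds was raised at 6 hours post-amputation (hpa) and had lost most of that rise by 48 hpa. They were chosen from control libraries only. The level of a transcript was its read count scaled to a common library total (CPM), averaged over the 3 libraries of a group. A_6, A_24 and A_48 were the log2 changes of CPM + 0.5 against 0 hpa, each averaged over the 2 control experiments. A member had a mean of at least 1 CPM in a control group, A_6 of at least 0.6 and A_48 below A_6 divided by 2, and 2 identifiers were left out by the rule. The limit of 150 members was not reached, and 16183 transcripts had the minimum level.

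The libraries came from wound tissue of tail fragments of the planarian flatworm Schmidtea mediterranea, strain CIW4, at 0, 6, 24 and 48 hpa. In the myoD experiment, animals were fed double-stranded RNA against myoD or against unc-22, a nematode gene that served as the control, 10 times in 5 weeks per the labels; the series text gives 8 feedings. In the fst experiment, animals were fed double-stranded RNA against follistatin (fst) or unc-22 6 times in 3 weeks. Each of the 16 groups had 3 libraries, each made from 5 wounds, so that differences in cell composition and in RNA per cell cannot be told apart. Between the RNAi arms of the experiments the target and the number of feedings changed together and cannot be told apart, while the 2 controls had the same RNA and differed in feedings and experiment.

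Planarians rebuild lost body parts from dividing stem cells, and a cut of any kind is followed within hours by a wave of transcripts that is common to wounds and then subsides, before a later phase that depends on whether tissue is missing. Muscle cells carry much of the positional information in these animals. MyoD is a transcription factor of muscle that in planarians is needed for longitudinal muscle fibres, and Follistatin is a secreted inhibitor of Activin-type signals that is itself induced at wounds. The comparison of RNAi with control wounds over time asks how the wound response differs when either gene is inhibited.

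No gene names accompany the identifiers in the tables, and 0 members could be given a name or a role; members are therefore described by identifier, level and time course. For the same reason the levels of myoD and follistatin transcripts were not read, and the degree of inhibition was not tested. Library totals ran from 7169717 to 22065480 reads with a median of 15946485. The labels note human contamination in fst 48 hpa replicate 1, whose counts differed from those of the other 2 libraries of its group by a chi-square of 92.4 and 94.4 per transcript, against 3.55 between those 2; counts for fst RNAi at 48 hpa are given with and without it. As the 24 libraries of an experiment shared 1 fit, fst 48 hpa replicate 1 also entered the spread used for the other fst comparisons. Whether replicate libraries stem from different animals is not stated, so p-values measure the spread between these libraries.

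In the control wounds that chose them, the 68 members had a median A_6 of 0.88, a median A_24 of 0.26 and a median A_48 of 0.11. The highest A_6 was 2.58, 26 members had an A_6 of at least 1 and 5 had at least 2. At 24 hpa 47 members had under 0.5 times the 6 hpa change left, and at 48 hpa 29 members had a mean change below 0. The highest control mean was 1 to 10 CPM for 34 members, 10 to 100 CPM for 25 and 100 CPM or more for 9. At the edge of the rule, the lowest A_6 of a member was 0.603 and the highest just outside 0.59, with 13 members less than 0.1 above the minimum and 27 transcripts less than 0.1 below it. The largest share of A_6 kept at 48 hpa by a member was 0.484, and the smallest outside was 0.508. These values describe the choice and are not tested.

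The median change over all 68 members was followed in every library as the log2 change against the mean of the control at 0 hpa of the same experiment. At 6 hpa it was 0.80, 0.68 and 0.74 in the myoD RNAi libraries, against 0.94, 0.97 and 0.69 in their controls, and 0.77, 0.81 and 1.01 in the fst RNAi libraries, against 0.86, 0.80 and 0.87 in theirs. RNAi and control libraries overlapped in both experiments at 6 hpa. Control libraries at 0, 6 and 48 hpa chose the members, so RNAi against control at 6 and 48 hpa is only described. Nothing is read from overlap or separation at those times. At 24 hpa the median change was 0.19 ± 0.06 in myoD RNAi and 0.21 ± 0.12 in control libraries (SD, n = 3), which overlapped. It was 0.33 ± 0.09 in fst RNAi and 0.19 ± 0.04 in control libraries at 24 hpa (SD, n = 3). There the fst values of 0.32, 0.24 and 0.42 lay above the control values of 0.20, 0.14 and 0.23. This separation was not tested. At 48 hpa the median change was -0.04 ± 0.03 in myoD RNAi and -0.02 ± 0.06 in control libraries. It was 0.05 ± 0.03 in fst RNAi and 0.20 ± 0.04 in control libraries at 48 hpa (SD, n = 3), and there the 3 fst values lay below the 3 control values; the fst libraries without replicate 1 were both at 0.07.

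**Figure D1:**
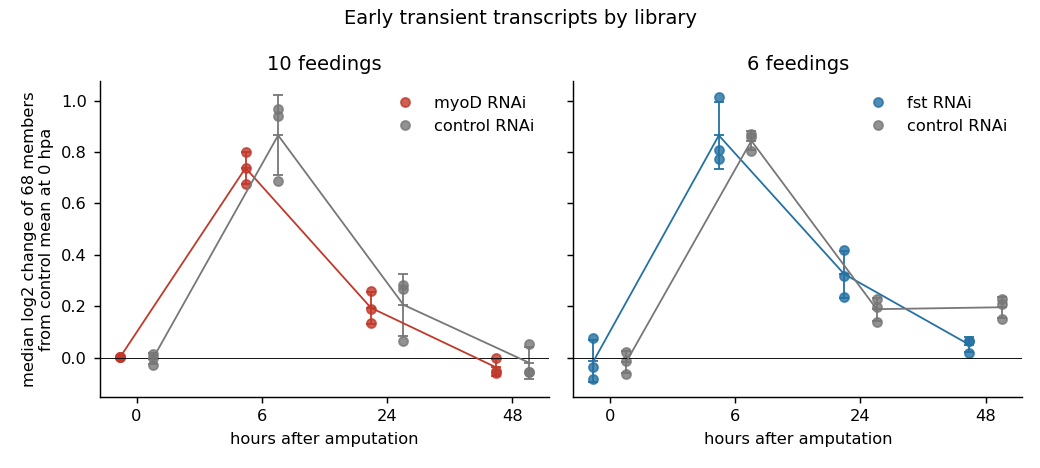
Median log2 change of the 68 members in each library (points) against the control mean at 0 hpa of the same experiment, with the mean and SD of 3 libraries, at 0, 6, 24 and 48 hpa (evenly spaced on the axis). All 12 libraries at 6 hpa lie between 0.68 and 1.01, and all libraries at 48 hpa lie at or under 0.23.

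Members differed in which control experiment carried the rise. A log2 change of at least 0.6 at 6 hpa was reached in both controls by 31 members, in the 10-feeding control alone by 17 and in the 6-feeding control alone by 20. For 10 members a single control library at 6 hpa held over 80% of the summed CPM of all 6 control libraries at that time; in the other 58 the highest share was 50.9%. This limit was chosen after the values were seen. Of these 10, 8 had their reads in 6-feeding control replicate 1 and 2 in 10-feeding control replicate 2. In that library they had 7.25 to 76.2 CPM, and in the other 5 control libraries at most 0.893 CPM. They included 9 of the 20 members with the highest A_6, and 8 of them passed the minimum count in neither experiment.

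dd_Smed_v4_706_0_1, the member with the second highest A_6, was one of them. In the 6-feeding controls at 6 hpa it had 76.2, 0.0938 and 0 CPM, and in the fst RNAi libraries at 6 hpa 0.153, 1.38 and 0.159 CPM. Over all 48 libraries no other value passed 2.81 CPM, and its A_6 was 2.53. In a repeat of the rule that was chosen after seeing the data, 56 of the 68 members still met it without 6-feeding control replicate 1 at 6 hpa, and 7 other transcripts joined them. Leaving out any other control library used by the rule left 61 to 68 of the members, and the median A_6 of the 58 members without such a library was 0.82.

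**Figure D2:**
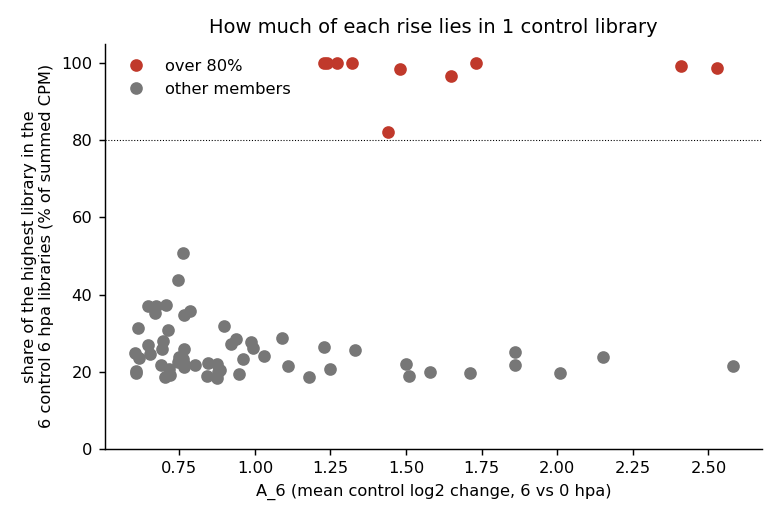
Share of the highest library in the summed CPM of the 6 control libraries at 6 hpa (vertical axis, %) against A_6 (horizontal axis), 1 point per member. The 10 members over 80% (dotted line) have A_6 of 1.23 to 2.53, and the other 58 lie at or under 50.9%.

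Whether the early rise was also present when myoD was inhibited was read from the myoD RNAi libraries, which had no part in the choice of members. Of the 57 members that passed the minimum count, 48 were higher at 6 than at 0 hpa and 0 were lower, while 9.85% of the 17527 transcripts tested were called higher and 7.12% lower (edgeR quasi-likelihood test, Benjamini-Hochberg adjusted p under 0.05). Their median log2 fold change was 0.90, against -0.01 over all transcripts tested. The minimum favours members that are high in some group. With no minimum, when all 68 members entered the test, 45 were called higher. The shares of all transcripts given here and below are from fits with the minimum, and those without it are not given. The authors' deposited table of the same comparison listed 42 of 65 members with a positive log2 fold change at an adjusted p under 0.05, where 4.41% of its transcripts were.

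dd_Smed_v4_4944_0_1 had the highest A_6 of all members. It had 74.7, 65.3 and 72.5 CPM at 6 hpa against 13.5, 11.5 and 13.4 CPM at 0 hpa in myoD RNAi wounds (log2 fold change 2.49, SE 0.12, adjusted p = 9.77e-14). The 2 groups of libraries did not overlap. The largest rises by fold were of scarce transcripts. dd_Smed_v4_238_0_1 had 174 counts at 6 hpa against 1 count at 0 hpa, a ratio of 181 with an exact 95% counting interval of 32.1 to 7194, which covers counting error only. dd_Smed_v4_12565_0_1 had 7.15, 3.66 and 5.61 CPM at 6 hpa against 0.377, 0.408 and 0.176 CPM at 0 hpa, a log2 fold change of 4.05.

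By 24 hpa much of the rise was gone in myoD RNAi wounds, and by 48 hpa nearly all of it. Against 6 hpa, 33 of 57 members were lower at 24 hpa and 0 were higher, beside 6.74% of all transcripts tested called lower and 6.33% higher (edgeR, adjusted p). At 48 hpa 46 were lower than at 6 hpa and 0 higher, beside 15.6% called lower and 13.8% higher, with a median log2 fold change of -1.08 among members and 0.01 over all transcripts tested. With no minimum count, 31 and 45 of 68 were lower, for which the share of all transcripts is not given. Of the members lower at 48 hpa, 15 were not yet called lower at 24 hpa, a pattern that was not counted over all transcripts. These comparisons share the 6 hpa libraries.

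One of the most abundant members was dd_Smed_v4_320_0_1. Its level in myoD RNAi wounds was 2408, 2347 and 2423 CPM at 0 hpa, 5728, 5440 and 6421 CPM at 6 hpa, 1306, 1263 and 1099 CPM at 24 hpa and 1241, 1091 and 1090 CPM at 48 hpa. The libraries at 24 and 48 hpa lay below those at 0 hpa as well as those at 6 hpa. The log2 fold change was -2.33 (SE 0.07) at 24 against 6 hpa, with an adjusted p of 6.22e-22 (edgeR). dd_Smed_v4_15647_0_1 fell to 2.74, 1.61 and 1.09 CPM at 24 hpa, against 9.53, 7.12 and 10.6 CPM at 6 hpa. By 48 hpa dd_Smed_v4_238_0_1 had fallen to 0.0527, 0.227 and 0 CPM, against 3.15, 3.77 and 2.89 CPM at 6 hpa. dd_Smed_v4_13007_0_1 had 1 count at 48 hpa against 65 at 6 hpa. The 6 hpa level was 55.8 times the 48 hpa level, with an exact 95% counting interval of 9.68 to 2239. dd_Smed_v4_238_0_1 and dd_Smed_v4_13007_0_1 were scarce at 0 and 48 hpa, so the minimum count favoured their calls and nothing is read from these.

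The return was not to the starting level in every member. At 48 against 0 hpa in myoD RNAi wounds, 5 of 57 members were higher and 9 lower, beside 4.2% of transcripts called higher and 6.1% called lower (edgeR, adjusted p). In 33 members the rise at 6 hpa and the fall by 48 hpa were called and 48 against 0 hpa was not. A missing call does not show that a member was back at its 0 hpa level. The share of all transcripts with these calls was not counted. The 14 calls were 9 without myoD 48 hpa replicate 1. dd_Smed_v4_1039_0_1 fell to 101, 109 and 93 CPM at 48 hpa, against 348, 289 and 312 CPM at 0 hpa (log2 fold change -1.73, SE 0.10, adjusted p = 5.39e-11). dd_Smed_v4_17481_0_1 fell to 0.896, 0.834 and 0.521 CPM, against 2.58, 3.93 and 5.44 CPM. dd_Smed_v4_23420_0_1 kept 3.37, 3.34 and 3.57 CPM at 48 hpa against 1.51, 0.97 and 1.35 CPM at 0 hpa (adjusted p = 0.0184). This call was lost without myoD 0 hpa replicate 2 or without 48 hpa replicate 1 or 3 (adjusted p up to 0.0941). dd_Smed_v4_30891_0_1 had 1.24 CPM at 48 hpa and 0.341 CPM at 0 hpa on average (adjusted p = 0.0432), a call lost whichever of the 6 libraries was left out (adjusted p 0.065 to 0.146).

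The same questions were put to the fst RNAi libraries. At 6 against 0 hpa, 39 of 57 members were higher and 0 lower (edgeR, adjusted p). Of the 17815 transcripts tested, 4.88% were called higher and 2.85% lower. The median log2 fold change of members was 1.05. Without fst 48 hpa replicate 1 in the fit, 40 of 60 members were higher and 0 lower, beside 7.7% and 5.11% of transcripts. With all libraries and no minimum count, 37 of 68 members were higher, with no share of all transcripts given for that fit. The authors' deposited table listed 30 of 68 members as higher at an adjusted p under 0.05, where 1.51% of its transcripts were. Among the 54 members tested in both experiments, 34 were called higher at 6 hpa in both myoD and fst RNAi wounds. How many of all transcripts were called higher in both was not counted, so nothing is read from this overlap.

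dd_Smed_v4_1039_0_1 had 601, 819 and 802 CPM at 6 hpa in fst RNAi wounds, against 90.4, 82.6 and 122 CPM at 0 hpa (log2 fold change 2.92, SE 0.18, adjusted p = 5.77e-10). dd_Smed_v4_4944_0_1 had 104, 113 and 147 CPM at 6 hpa against 17.9, 18.9 and 19.9 CPM at 0 hpa. The largest rise by fold was again of a scarce transcript, dd_Smed_v4_32934_0_1, with 0.869, 0.918 and 1.7 CPM at 6 hpa against 0, 0.17 and 0.0524 CPM at 0 hpa. Its mean passed 1 CPM in this experiment only at 6 hpa, so the minimum count favoured its call. In all 3 the libraries at 6 hpa lay above every library at 0 hpa.

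The later fall was likewise present in fst RNAi wounds. At 24 against 6 hpa, 29 of 57 members were lower and 2 higher, beside 3.06% of transcripts called lower and 2.54% higher (edgeR, adjusted p). At 48 against 6 hpa, 40 were lower and 0 higher, beside 10% called lower and 10.1% higher. Without fst 48 hpa replicate 1, 35 of 60 members were lower and 0 higher, beside 5.58% and 3.88% of transcripts. With all libraries and no minimum count, 29 and 39 of 68 members were lower, again without the share of all transcripts. dd_Smed_v4_1039_0_1 had 117, 104 and 138 CPM at 24 hpa, then 60.1, 83.2 and 73.9 CPM at 48 hpa, both under all of its 6 hpa values. dd_Smed_v4_17481_0_1 fell to 0.216, 0.374 and 0.455 CPM at 24 hpa, against 2.2, 3.15 and 2.38 CPM at 6 hpa. dd_Smed_v4_32934_0_1 fell to 0.251, 0.103 and 0.102 CPM at 48 hpa, below every 6 hpa library, a call that the minimum count likewise favoured. One of the 2 members that were higher at 24 than at 6 hpa was dd_Smed_v4_12565_0_1, with 1.62, 1.01 and 1.37 CPM against 0.256, 0.287 and 0.212 CPM (adjusted p = 0.00894). Its mean did not rise by 6 hpa in this experiment. It was 0.398 CPM at 0 hpa and 0.251 CPM at 6 hpa in fst RNAi wounds, and 0.816 and 0.154 CPM in controls.

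At 48 against 0 hpa in fst RNAi wounds, 5 of 57 members were higher and 5 lower, beside 10.6% and 9.77% of transcripts, so that members were not called more often than transcripts at large. Without fst 48 hpa replicate 1 the counts were 0 higher and 4 lower of 60 members, beside 4.91% and 6.18% of transcripts. Set against 10 calls in all, there were 3 without fst 0 hpa replicate 1 and 5 without fst 0 hpa replicate 2 or 3. dd_Smed_v4_4392_0_1 fell to 23.6, 27.9 and 38 CPM at 48 hpa, against 84.3, 59.1 and 97.3 CPM at 0 hpa (adjusted p = 1.75e-05, edgeR). dd_Smed_v4_8029_0_1 fell to 1.75, 2.38 and 2.74 CPM, against 5.68, 6.4 and 6.86 CPM. Both falls were called in each of the 6 fits that left out 1 library. dd_Smed_v4_18197_0_1 had 3.63, 1.96 and 1.73 CPM at 48 hpa against 1.08, 0.68 and 1.36 CPM at 0 hpa (adjusted p = 0.0388, and 0.294 without fst 48 hpa replicate 1, 0.0773 and 0.167 without fst 0 hpa replicate 1 and 2). dd_Smed_v4_6808_0_1 had 17.2, 17.4 and 16 CPM against 8.33, 9.35 and 11.7 CPM (adjusted p = 0.0307), a call lost without fst 0 hpa replicate 1 or 2 or without fst 48 hpa replicate 1 or 2 (adjusted p 0.051 to 0.168).

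**Figure D3:**
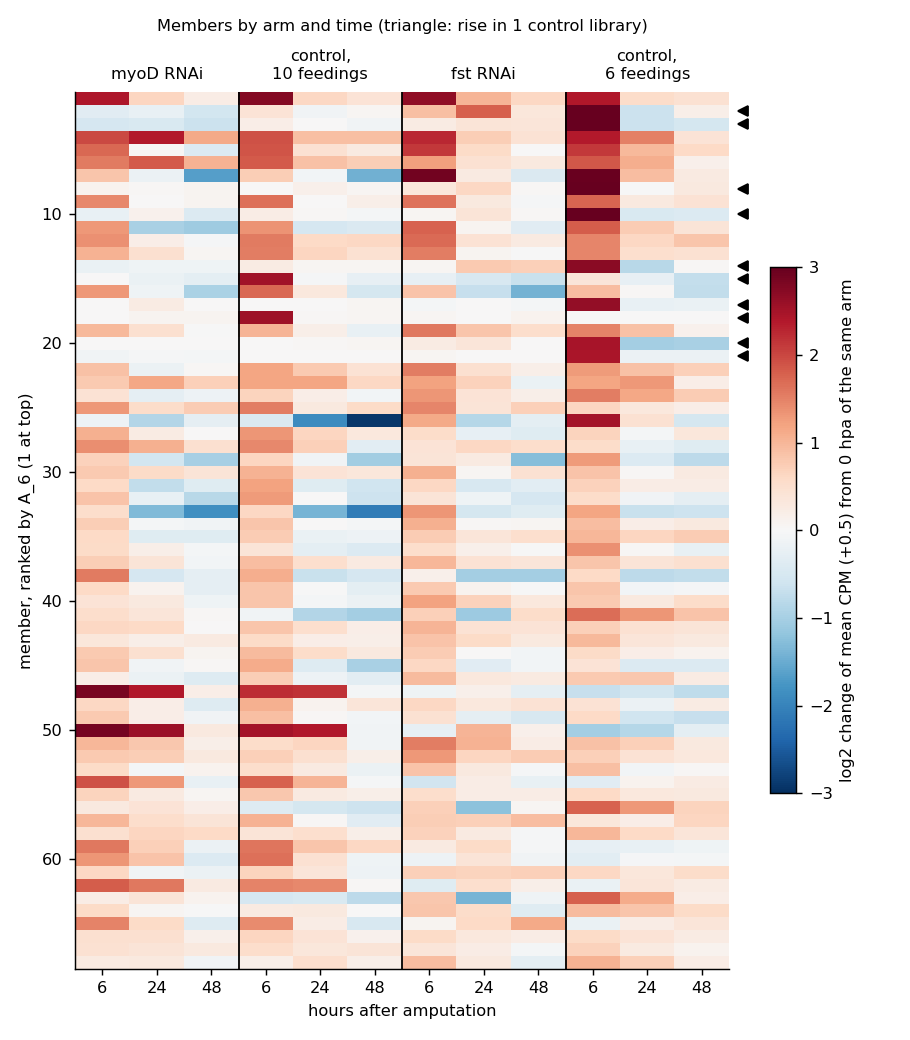
Log2 change of mean CPM + 0.5 against 0 hpa of the same arm, for each of the 68 members (rows, ranked by A_6) at 6, 24 and 48 hpa in myoD RNAi, its control, fst RNAi and its control; the colour scale ends at 3 on each side. Triangles mark the 10 members whose control rise lay in 1 library, whose changes at 6 hpa lie between -0.49 and 0.10 in myoD RNAi and between -0.25 and 0.91 in fst RNAi; the medians over all 68 are 0.71 and 0.75.

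A set of 180 transcripts that met the same rise at 6 hpa but kept at least 0.5 times the rise at 48 hpa in controls served for comparison. In myoD RNAi libraries 142 of the 180 were higher at 6 hpa, and 112 were lower at 48 than at 6 hpa, with a median log2 fold change of -0.48. In fst RNAi libraries 138 of 180 were higher at 6 hpa, and 90 were lower at 48 than at 6 hpa, with a median of -0.44 (77 without fst 48 hpa replicate 1). The difference between the sets was not tested. Set against 0 hpa, 50 of these 180 and 5 of 57 transient members were higher at 48 hpa in myoD RNAi wounds, beside 4.2% of all transcripts tested. In fst RNAi wounds 95 of the 180 and 5 of 57 transient members were higher, beside 10.6% of all transcripts tested; without fst 48 hpa replicate 1 these were 76 of 180, 0 of 60 and 4.91%. For the set of 180, leaving out that library was chosen after seeing the data.

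The size of the rise at 6 hpa was then compared directly between the RNAi experiments, as the change at 6 against 0 hpa in myoD RNAi minus that in fst RNAi libraries. Of 61 members in the fit over all 48 libraries, 5 had a larger change in myoD RNAi wounds and 2 a larger one in fst RNAi wounds, beside 1.5% and 0.274% of 18230 transcripts (edgeR, adjusted p). The largest of these differences were of scarce transcripts. dd_Smed_v4_4737_0_1 had 2.58, 2.44 and 1.66 CPM at 6 hpa and 0.323, 0.102 and 0.234 CPM at 0 hpa in myoD RNAi wounds. In fst RNAi wounds it had 0.153, 0.172 and 0.212 CPM at 6 hpa and 0.49, 0.566 and 0.471 CPM at 0 hpa. The log2 difference between the changes was 4.80 (SE 0.68, adjusted p = 2.16e-05). Its controls were split in the same way, with 1.45, 2.66 and 2.4 CPM at 6 hpa and 0.364, 0.138 and 0.361 CPM at 0 hpa in the 10-feeding group, and 0.18, 0.188 and 0.238 CPM at 6 hpa and 0.191, 0.499 and 0.495 CPM at 0 hpa in the 6-feeding group. dd_Smed_v4_238_0_1 had 3 counts in the fst RNAi libraries of 6 hpa and 5 in those of 0 hpa, beside 174 and 1 in myoD RNAi wounds. Its fitted difference of 7.90 (edgeR, adjusted p = 0.00216) depends on the prior count and is no bound. It failed the minimum count in the 6-feeding fit and entered this fit only through the 10-feeding libraries, where it is high. The minimum therefore favoured its call, 1 of the 5, and nothing is read from that call. The 10-feeding controls had 106 counts at 6 hpa and 3 at 0 hpa, and the 6-feeding controls had 4 and 24.

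In the opposite direction, dd_Smed_v4_1039_0_1 rose less in the myoD experiment, with a log2 difference of -2.06 (SE 0.21, adjusted p = 4.80e-08, edgeR). Its 6 hpa means were 563 CPM in myoD RNAi and 740 CPM in fst RNAi wounds, while its 0 hpa means were 316 and 98.4 CPM, so that the experiments differed by more at 0 than at 6 hpa. The controls showed the same split, with 297 CPM in the 10-feeding and 91 CPM in the 6-feeding group at 0 hpa. At 48 hpa all 4 arms lay between 72.4 and 110 CPM. dd_Smed_v4_20048_0_1 also rose less in myoD RNAi wounds (log2 difference -0.98, adjusted p = 0.0453), but the call was lost in 10 of 13 fits that left out 1 library (adjusted p up to 0.184) and was kept among these only without myoD 0 hpa replicate 1, fst 0 hpa replicate 3 or fst 48 hpa replicate 1. It was also lost with the replicate number as a block (adjusted p = 0.0502).

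**Figure D4:**
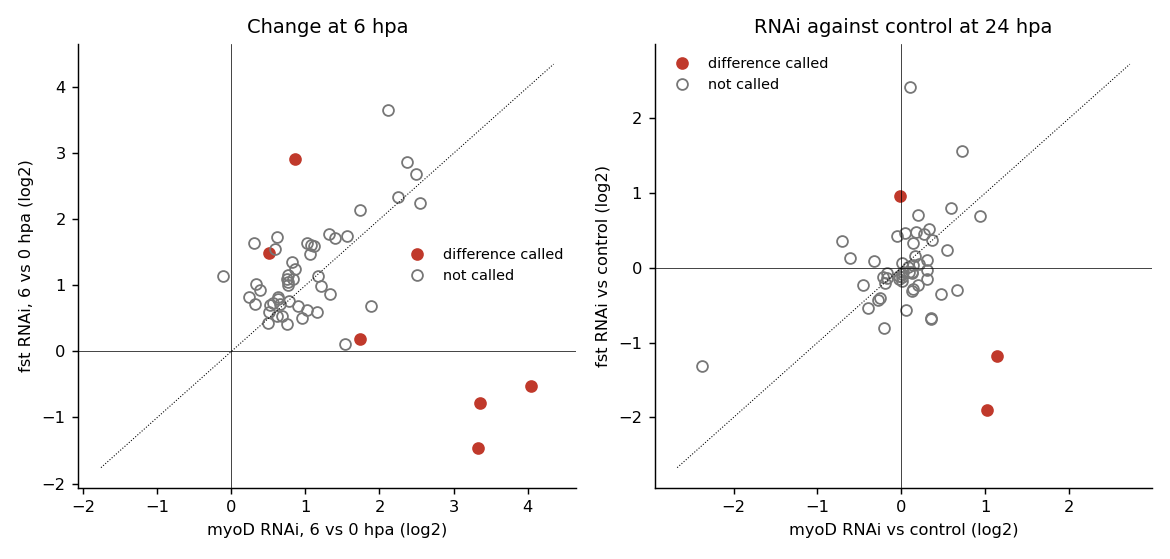
Left, log2 fold change at 6 against 0 hpa in myoD RNAi (horizontal) and fst RNAi (vertical) for the 54 members tested in both experiments; right, RNAi against control at 24 hpa for the same members. Filled points mark members whose difference between experiments was called (6 of the 7 called, and 3 of 3), and on the left 3 of them lie at over 3 in myoD RNAi and under 0 in fst RNAi.

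The question of whether RNAi changed the members' levels was read first at 24 hpa, a time that entered the choice only through the minimum level. Few members differed. In myoD RNAi wounds 2 of 57 members were higher and 3 lower than in controls, beside 2.48% and 3.37% of transcripts (edgeR, adjusted p), so that the share of members was near that of transcripts at large. When libraries were left out, only 1 of the 5 calls stood without myoD replicate 2, while leaving out the third control gave 2 and the first control 3. Among fst RNAi libraries 3 of 57 members were higher and 1 lower, beside 0.544% and 0.298%; these 4 calls were 2 without control replicate 1, without control replicate 2 or without fst replicate 3.

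dd_Smed_v4_320_0_1 fell to 1306, 1263 and 1099 CPM in myoD RNAi wounds at 24 hpa, against 1626, 1673 and 1646 CPM in controls (log2 fold change -0.39, SE 0.07, adjusted p = 2.64e-04). The call was kept in each of the 6 fits that left out 1 library, with adjusted p of at most 0.00381. At 24 hpa in the fst experiment it had 1492, 1548 and 1861 CPM in RNAi wounds, against 2283, 2388 and 2244 CPM in controls, with no overlap (log2 fold change -0.53, adjusted p = 0.0529). The difference between the myoD and the fst effect was 0.13 with an SE of 0.15 (adjusted p = 0.793). dd_Smed_v4_678_0_1 had 377, 357 and 310 CPM in myoD RNAi wounds, against 416, 449 and 439 CPM in controls (adjusted p = 0.0173), a call lost without myoD replicate 2 or 3 or control replicate 3 (adjusted p up to 0.0753). dd_Smed_v4_2394_0_1 had 106, 146 and 176 CPM in myoD RNAi wounds, against 87.7, 58.4 and 84.6 CPM in controls (adjusted p = 0.0312), a call kept only without myoD replicate 1 among the fits that left out 1 library (adjusted p up to 0.115).

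In fst RNAi wounds dd_Smed_v4_23420_0_1 had 2.05, 1.28 and 0.986 CPM at 24 hpa, against 5.49, 6.77 and 3 CPM in controls (log2 fold change -1.90, SE 0.33, adjusted p = 0.00287). Its fst RNAi libraries already lay below controls at 0 hpa, with 0.392, 0.906 and 0.681 CPM against 1.4, 1.31 and 1.67 CPM. At 6 hpa they had 4.24, 3.44 and 7.63 CPM against 9.11, 10.5 and 9.65 CPM. In the myoD experiment its 0 hpa values were 1.51, 0.97 and 1.35 CPM, against 2.18, 1.73 and 2.37 CPM in controls. In myoD RNAi wounds the same transcript had 12.2, 8.9 and 5.18 CPM, against 3.68, 5.26 and 4.14 CPM in controls (log2 fold change 1.02, adjusted p = 0.0271). This was the second member called higher there, although 1 myoD library lay within the control range. The difference between the myoD and the fst effect was 2.92 on the log2 scale (SE 0.44, adjusted p = 2.01e-04), and it was called in each of the 13 fits that left out 1 library. dd_Smed_v4_12565_0_1 had 1.62, 1.01 and 1.37 CPM in fst RNAi wounds, against 0.119, 0.118 and 0.429 CPM in controls (adjusted p = 0.0168). This call was lost without fst replicate 1 or 3 or without control replicate 1 or 2 (adjusted p up to 0.128). dd_Smed_v4_47101_0_1 had 0.863, 1.28 and 1.44 CPM, against 0.239, 0.236 and 0.696 CPM (adjusted p = 0.0396), a call lost without fst replicate 2 or 3 or control replicate 1 or 2 (adjusted p up to 0.256). It was also lost with DESeq2 (0.0636), with the replicate block (0.0573), with no minimum count (0.0518) and in a fit of the compared groups only (adjusted p = 0.0881).

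The third member higher in fst RNAi wounds at 24 hpa was dd_Smed_v4_4944_0_1, with 34.5, 33 and 47.9 CPM against 19.9, 19.3 and 18.7 CPM in controls (log2 fold change 0.96, SE 0.17, adjusted p = 0.00486, edgeR). Its fst RNAi libraries already lay above controls at 0 hpa, with 17.9, 18.9 and 19.9 CPM against 12.6, 12.5 and 13.7 CPM. At 6 hpa the transcript had 104, 113 and 147 CPM against 69.9, 48.3 and 95 CPM (adjusted p = 0.0289, edgeR). That call was lost in 4 of 7 fits that left out 1 library. In myoD RNAi wounds it had 24.2, 19.8 and 17.4 CPM against 19.6, 20 and 23.2 CPM, a log2 fold change of -0.01 (adjusted p = 0.968). The difference between the 2 effects was -0.97 (SE 0.23, adjusted p = 0.033), but the call was lost in 9 of 13 fits that left out 1 library (adjusted p up to 0.201). dd_Smed_v4_30891_0_1 had 4.1, 2.41 and 1.09 CPM in myoD RNAi wounds, against 1.61, 1.01 and 0.91 CPM in controls, and 0.54, 0.427 and 0.759 CPM in fst RNAi wounds, against 1.01, 1.53 and 1.23 CPM in controls. The difference between the 2 effects was 2.32 (SE 0.56, adjusted p = 0.0373), a call lost in 8 of 13 fits that left out 1 library (adjusted p up to 0.144). In total 2 of 61 members had a larger effect in the myoD and 1 in the fst experiment at 24 hpa, beside 0.252% and 0.258% of transcripts. The total of 3 was 1 without myoD replicate 2, 10-feeding control replicate 2 or 6-feeding control replicate 2.

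**Figure D5:**
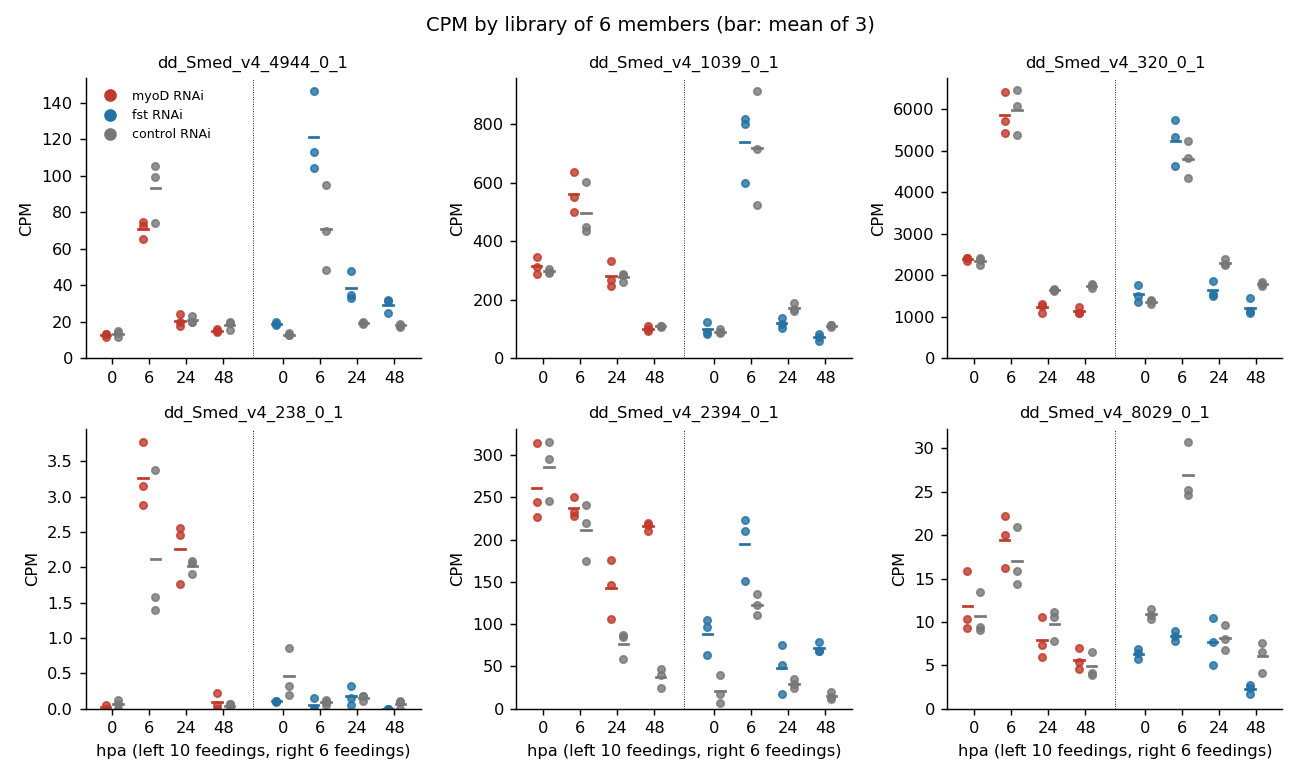
CPM of 6 members in every library (points; bars are means of 3) by hours after amputation, with the 10-feeding experiment on the left of each panel and the 6-feeding experiment on the right, RNAi left of control. dd_Smed_v4_238_0_1 rises above 1 CPM in the 10-feeding libraries at 6 and 24 hpa and stays under 1 CPM in every 6-feeding library.

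At 0, 6 and 48 hpa the control libraries themselves chose the members, high at 6 hpa and low at 48 hpa, so RNAi against control at these times is given as a description from which nothing is read. Among 57 members, edgeR called 0 at 0 hpa and 0 at 6 hpa in myoD RNAi wounds (unadjusted p under 0.05 for 1 and 10 members; DESeq2 called 0 at both times), where among all transcripts 0.0456% were called higher and 0.542% lower at 0 hpa. The shares at 6 hpa were 0.2% and 0.365%. At 48 hpa 6 were higher and 5 lower, beside 12.7% and 12.9%; these 11 were 6 without myoD replicate 1. In fst RNAi wounds 0 were called at 0 hpa (unadjusted 13; DESeq2 called 2), beside 0.387% higher and 0.258% lower. At 6 hpa 2 were higher and 2 lower, beside 0.421% and 0.561%, a total that was 2 without control replicate 1 or fst replicate 2 and 7 without control replicate 3 or fst 48 hpa replicate 1. At 48 hpa 5 were higher and 3 lower, beside 3.7% and 3.6%, a total of 2 without control replicate 1 and 4 without control replicate 2. Without fst 48 hpa replicate 1, 3 of 60 members were higher and 4 lower, beside 3.24% and 3.44%. Between the experiments, 1 of 61 members, dd_Smed_v4_4944_0_1, had a larger RNAi effect in the fst experiment at 48 hpa and 0 in the myoD experiment, beside 0.357% and 0.165%; without fst 48 hpa replicate 1 none was called (adjusted p = 0.0885 for that transcript, edgeR).

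The members named at these times had the following levels. dd_Smed_v4_2394_0_1 had 210, 220 and 217 CPM in myoD RNAi wounds at 48 hpa, against 24.6, 40.2 and 47 CPM in controls, and 68.7, 68.6 and 78.9 CPM in fst RNAi wounds, against 11.7, 19.3 and 13.5 CPM in controls. At 0 hpa it had 226, 244 and 314 CPM in myoD RNAi wounds, against 295, 246 and 315 CPM in their controls, which overlap. In the fst experiment its libraries already lay apart at 0 hpa, with 64, 105 and 97.1 CPM in fst RNAi wounds, against 17.7, 7.25 and 39.6 CPM in controls. dd_Smed_v4_47101_0_1 had 1.16, 1.52 and 1.19 CPM in myoD RNAi wounds at 48 hpa, against 0.534, 0.44 and 0.205 CPM in controls, and 1.38, 0.827 and 1.12 CPM in fst RNAi wounds, against 0.284, 0.21 and 0.418 CPM. For both transcripts the RNAi libraries at 48 hpa lay above their controls in both experiments. In the 10-feeding experiment dd_Smed_v4_2394_0_1 lacked the early rise. Its means were 261 CPM at 0 hpa and 237 CPM at 6 hpa in myoD RNAi wounds, and 285 and 212 CPM in controls. In the 6-feeding experiment they were 88.7 and 195 CPM in fst RNAi wounds, and 21.5 and 123 CPM in controls. For dd_Smed_v4_47101_0_1 the fst call was lost without fst 48 hpa replicate 1 or control replicate 1 or 2 (adjusted p 0.0534 to 0.0735, edgeR). For dd_Smed_v4_2394_0_1 the fst call was lost without control replicate 1 (adjusted p = 0.0581). The myoD calls of both were kept in each of the 6 fits that left out 1 library.

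Lower at 48 hpa was dd_Smed_v4_320_0_1, with 1241, 1091 and 1090 CPM in myoD RNAi wounds against 1786, 1765 and 1680 CPM in controls. Also called lower in myoD RNAi wounds was dd_Smed_v4_16409_0_1, with 1.32, 1.59 and 1.12 CPM against 2.8, 2.27 and 1.85 CPM. The call of dd_Smed_v4_16409_0_1 was lost in 4 of 6 fits that left out 1 library (adjusted p up to 0.193, edgeR). It was also lost with DESeq2 (adjusted p = 0.0648). At 48 hpa after fst RNAi dd_Smed_v4_678_0_1 had 266, 251 and 273 CPM, against 414, 375 and 398 CPM in controls. This call was lost in 4 of 6 fits that left out 1 library (adjusted p up to 0.0822, edgeR). A fit of the compared groups only lost it as well (adjusted p = 0.178). dd_Smed_v4_8029_0_1 was, of the 2 members called lower in fst RNAi wounds at 6 hpa, the one with the larger fold, with 7.82, 8.43 and 8.9 CPM in fst RNAi wounds against 24.6, 30.8 and 25.2 CPM. At 0 hpa it had 5.68, 6.4 and 6.86 CPM in fst RNAi wounds, against 10.4, 10.8 and 11.5 CPM in controls. At 24 hpa its fst RNAi libraries, at 10.5, 7.69 and 5.08 CPM, overlapped the controls at 6.8, 9.6 and 7.98 CPM. In myoD RNAi wounds it had 20, 16.2 and 22.2 CPM at 6 hpa, against 20.9, 14.4 and 15.9 CPM in controls, which overlap. At 6 hpa in fst RNAi wounds dd_Smed_v4_7413_0_1 had 39.8, 44.4 and 54.3 CPM, against 60.5, 80.2 and 67.3 CPM in controls. There dd_Smed_v4_14478_0_1 had 15.6, 16 and 20.6 CPM, against 8.81, 10.8 and 10.8 CPM. Of 7 fits that left out 1 library, 4 lost the dd_Smed_v4_7413_0_1 call (adjusted p up to 0.159, edgeR). The dd_Smed_v4_14478_0_1 call was lost in 2 of 7 (adjusted p up to 0.0577).

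In summed abundance the members were dominated by a few transcripts. Over all 48 libraries dd_Smed_v4_122_1_1 held 29.9% of the members' CPM, dd_Smed_v4_320_0_1 held 24% and the third 17.3%. The order differed between experiments. At 6 hpa in the 6-feeding experiment dd_Smed_v4_122_1_1 averaged 3588 CPM in fst RNAi and 1950 CPM in control wounds, while dd_Smed_v4_320_0_1 averaged 5242 CPM in fst RNAi and 4799 CPM in control wounds. dd_Smed_v4_122_1_1, described after its values were seen, was not called at 6 against 0 hpa in either experiment, with 4469, 6795 and 4226 CPM at 6 hpa against 3047, 4770 and 5516 CPM at 0 hpa in myoD RNAi wounds. It varied widely in the 6-feeding libraries, with 1198, 2802 and 2137 CPM in fst RNAi and 387, 41 and 1250 CPM in control wounds at 0 hpa. It passed the test in none of the comparisons above.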

How the data were processed

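Polyadenylated RNA of 48 wound libraries was sequenced with a strand-specific kit, per the labels' protocols. The authors deposited read counts per transcript of an assembly (dd_Smed_v4). Per the file headers, 20 further deposited tables of comparisons give normalised group means (signal), their ratio as a fold change, its log2 and p-values. CASAVA, cutadapt 1.8, Bowtie 1.1.1, SAMtools and DESeq are named in the submitters' processing notes. Library totals were 7169717 to 22065480 counts.

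The members and lists were chosen with earlier results of these data known. Counts as deposited were tested with edgeR 4.0.16 (R 4.3.3; TMM, filterByExpr, robust quasi-likelihood test), in a fit of the 24 libraries of each experiment or of all 48, with Benjamini-Hochberg adjustment over all transcripts tested. The minimum count left 57 of the 68 members in each experiment's fit, 54 of them in both, 61 in the fit of all libraries and 8 in neither experiment. A member that passed only through the group where it is high had to differ, so counts are given with no minimum as well. Transcripts named in a comparison were the 2 highest and 2 lowest by log2 fold change among members past the test, with a mean of 1 CPM in a group and no overlap of libraries, plus the 2 members with the highest A_6. The abundant members and calls outside that rule were chosen after their values were seen. The 8 lists of gene names, for wound-induced genes and cell types, matched 0 identifiers. Alternatives were RLE scaling, no minimum count, DESeq2 1.42.0, a replicate block, a fit of the compared groups only, and each library left out. The statistics were tested on simulated data.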

Additional observations from a re-analysis of the deposited data

Results flagged for a closer look

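For 8 results a test of the difference between the myoD and the fst experiment passed the threshold (edgeR quasi-likelihood test over 48 libraries, adjusted p). Each is the log2 effect in the myoD minus that in the fst experiment.

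For the change at 6 against 0 hpa in RNAi wounds, the difference was 7.895 for dd_Smed_v4_238_0_1, fitted on groups with 1, 5 and 3 counts and therefore no bound. That transcript passed the minimum count only through the 10-feeding libraries, where it is high, so nothing is read from its call. The difference was 4.796 for dd_Smed_v4_4737_0_1, -2.061 for dd_Smed_v4_1039_0_1 and -0.9755 for dd_Smed_v4_20048_0_1. The log2 changes of the 10-feeding and the 6-feeding control, which had the same RNA and helped to choose the members, differed in the same direction. They were 2.22 and -0.70 for dd_Smed_v4_238_0_1, 1.76 and -0.35 for dd_Smed_v4_4737_0_1, 0.74 and 2.97 for dd_Smed_v4_1039_0_1, and 0.67 and 1.55 for dd_Smed_v4_20048_0_1 (log2 of mean CPM + 0.5). dd_Smed_v4_20048_0_1 had 4.83, 4.41 and 4.97 CPM at 6 hpa and 3.07, 3.52 and 3.57 CPM at 0 hpa in myoD RNAi wounds. In fst RNAi wounds it had 6.95, 7.28 and 6.41 CPM at 6 hpa and 2.25, 2.15 and 2.93 CPM at 0 hpa.

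For RNAi against control at 24 hpa, where target and number of feedings cannot be told apart, the difference was 2.924 for dd_Smed_v4_23420_0_1, 2.321 for dd_Smed_v4_30891_0_1 and -0.9743 for dd_Smed_v4_4944_0_1. For RNAi against control at 48 hpa it was -1.009 for dd_Smed_v4_4944_0_1 (adjusted p = 0.0424), where the control libraries had a part in the choice of members. That call was lost in 9 of 12 fits that left out 1 library (adjusted p up to 0.138) and with no minimum count (0.105). At 48 hpa dd_Smed_v4_4944_0_1 had 16.1, 14.2 and 14.8 CPM in myoD RNAi wounds, against 19.2, 19.6 and 15.3 CPM in controls, and 24.6, 31.5 and 31.7 CPM in fst RNAi wounds, against 18.8, 17.2 and 17.9 CPM in controls. At 0 hpa its fst RNAi libraries already lay above their controls. Those of dd_Smed_v4_23420_0_1 lay below controls at 0 hpa in both experiments.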

How the results depend on the processing

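Of 234 counts of called members under alternatives, 188 stayed within 1.5 times the count reported and 0 reversed; of 581 log2 fold changes of named members, 473 kept their side of the threshold, 108 lost the call and 0 reversed, 91 of the 108 with a library left out. A fit of only the compared groups called 1 member for myoD RNAi against control at 6 hpa and 2 at 24 hpa. The same setting called 24 for fst 48 against 6 hpa, 3 for fst 48 against 0 hpa, 2 for fst against control at 0 hpa, 4 at 48 hpa, and 11 for the difference between experiments at 6 against 0 hpa. With no minimum count there were 5 for fst 48 against 0 hpa and 0 for the difference between experiments at 48 hpa, and with DESeq2 2 for fst against control at 0 hpa and 2 for that difference at 48 hpa. Fits of fewer groups held fewer libraries; the cause of the other changes was not tested.

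With 1 library left out, myoD RNAi counts ran from 42 to 44 at 6 against 0 hpa, 24 to 32 at 24 against 6 hpa, 45 to 46 at 48 against 6 hpa and 9 to 13 at 48 against 0 hpa. Against control they ran from 0 to 0 at 0 hpa, 0 to 2 at 6 hpa (2 without control replicate 2 and 1 without control replicate 3), 1 to 5 at 24 hpa and 6 to 11 at 48 hpa. The fst RNAi counts ran from 28 to 40 at 6 against 0 hpa, 22 to 38 at 24 against 6 hpa, 32 to 37 at 48 against 6 hpa and 3 to 11 at 48 against 0 hpa. Against control they ran from 0 to 2 at 0 hpa, 2 to 7 at 6 hpa, 2 to 6 at 24 hpa and 2 to 9 at 48 hpa. The differences between experiments ran from 5 to 9 at 6 against 0 hpa, 1 to 4 at 24 hpa and 0 to 2 at 48 hpa.

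Libraries with the same replicate number did not deviate together (mean correlation 0.00197 in the myoD and -0.0116 in the fst experiment, over 0.1 in 15 of 84 pairs in each). With the replicate number as a replicate block, the counts were 47, 33, 46 and 14 for the 4 time comparisons in myoD RNAi in the order above, and 38, 31, 38 and 9 in fst RNAi. Against control the block gave 0, 0, 6 and 12 members in myoD RNAi and 0, 4, 3 and 8 in fst RNAi by time, and 6, 4 and 1 between experiments. Depth limits the members of under 1 CPM in a group, whose fold changes rest on few counts.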
